A study of Mus musculus with 4 samples.

Results

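Chromosome 6 was examined as the mouse autosome on which strain-enriched H3K4me3 regions leaned towards C57BL/6 (B6) over NOD embryonic stem (ES) cells. H3K27ac regions leaned to B6 there too, but this was not particular to chromosome 6. Chromosome 11 had 449 B6-enriched and 361 NOD-enriched H3K27ac regions, and chromosome 15 had 226 and 220. The members were 2352 of the 31315 regions in 4 deposited lists, chosen by their position on chromosome 6. Each list was itself selected on measured values. An H3K4me3 region entered only when the tags of the named strain exceeded those of the other strain. The other strain was also the background for H3K27ac. The chromosome was selected on its ratio of B6 to NOD regions, so that ratio is given as a description without a test. B6-enriched H3K4me3 accounted for 1034 of 7587 regions, NOD-enriched H3K4me3 for 557 of 12077, B6-enriched H3K27ac for 494 of 5525 and NOD-enriched H3K27ac for 267 of 6126.

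The study profiled ES cells isolated from embryos of C57BL/6 and NOD mice and grown with 2i, the pair of MEK and GSK3 inhibitors that holds ES cells in a naive state. Chromatin of each strain was immunoprecipitated for H3K4me3 and for H3K27ac and sequenced as 50 bp single-end reads. There was 1 library for each strain and mark, so no difference below has a replicate check and no p-value is given. The labels do not name the ES line behind a library, and strain and library cannot be told apart. For H3K4me3 the B6 library had 14791364 tags and the NOD library 22750449. For H3K27ac the depth is unknown. No input DNA library was used here, so the amount of chromosome 6 DNA and the mark per DNA copy cannot be told apart. All intervals are 95% exact intervals and cover counting error only.

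Trimethylation of lysine 4 on histone H3 (H3K4me3) marks active and poised promoters and is strongest over CpG islands. Acetylation of lysine 27 (H3K27ac) marks active promoters and enhancers, and long or dense stretches of it are called super enhancers. Mouse chromosome 6 carries the Hoxa cluster of body-axis regulators, the Nanog gene cluster of pluripotent cells, imprinted domains around Peg10 and Mest, and the natural killer gene complex of lectin-like receptors.

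The sequences below were taken in or next to leading regions of each list. They are 200 bp windows of the GRCm38 (mm10) reference, which is C57BL/6J sequence. CpG dinucleotides are in capitals. For Serbp1, proximal means the nearer of the intergenic regions named further below, 28.1 kb upstream of the gene. The first 4 are the centres of high-ranking distal or intronic regions, and the last pair lies directly upstream of a transcription start site (TSS) inside a region. That pair was taken from the H3K4me3 region with the most tags in each list among those centred within 1 kb of a TSS, holding that TSS and with an upstream window clear of exons.
Serbp1 proximal region, plus strand, chr6:67238825-67239024: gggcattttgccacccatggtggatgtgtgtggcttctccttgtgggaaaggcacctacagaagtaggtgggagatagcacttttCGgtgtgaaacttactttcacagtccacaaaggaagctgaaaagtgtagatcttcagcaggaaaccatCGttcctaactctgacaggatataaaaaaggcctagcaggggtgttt
Magi1 region, plus strand, chr6:93605753-93605952: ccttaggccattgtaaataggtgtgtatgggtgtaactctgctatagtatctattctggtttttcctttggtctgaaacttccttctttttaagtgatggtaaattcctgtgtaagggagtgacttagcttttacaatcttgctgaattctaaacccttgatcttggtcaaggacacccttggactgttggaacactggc
Mir6373 region, plus strand, chr6:102733505-102733704: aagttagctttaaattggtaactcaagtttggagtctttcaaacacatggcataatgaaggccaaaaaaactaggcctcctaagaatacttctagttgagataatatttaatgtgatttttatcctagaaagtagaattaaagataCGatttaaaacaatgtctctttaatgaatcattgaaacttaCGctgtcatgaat
Aass region, plus strand, chr6:23084818-23085017: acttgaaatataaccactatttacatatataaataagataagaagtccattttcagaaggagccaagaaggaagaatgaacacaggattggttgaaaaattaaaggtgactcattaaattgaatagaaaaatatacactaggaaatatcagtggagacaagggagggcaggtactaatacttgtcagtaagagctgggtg
Pdia4 upstream window, minus strand, chr6:47813513-47813712: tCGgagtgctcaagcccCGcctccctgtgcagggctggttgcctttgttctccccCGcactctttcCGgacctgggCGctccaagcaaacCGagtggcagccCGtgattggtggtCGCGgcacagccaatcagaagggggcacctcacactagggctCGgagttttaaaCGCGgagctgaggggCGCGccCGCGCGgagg
Plxna4 upstream window, minus strand, chr6:32588193-32588392: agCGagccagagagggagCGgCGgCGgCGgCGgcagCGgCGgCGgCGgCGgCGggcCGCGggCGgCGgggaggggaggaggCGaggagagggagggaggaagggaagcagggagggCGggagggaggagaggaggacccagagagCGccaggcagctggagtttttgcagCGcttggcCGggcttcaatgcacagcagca
The centres of the distal regions held 0 to 2 CpG in 200 bp, whereas the windows upstream of Pdia4 and Plxna4 held 17 and 21. The Pdia4 window lay within its region. The Plxna4 region ended at chr6:32588276, so its window, with most of the CpG, lay largely outside the region. Pdia4 encodes a disulfide isomerase of the endoplasmic reticulum, and its region had 124 B6 and 43 NOD tags. Plxna4 encodes a semaphorin co-receptor used in axon guidance, and its region had 18 B6 and 137 NOD tags.

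Chromosome 6 carried 6.91 B6-enriched H3K4me3 regions in each Mb. The 17 other autosomes compared had between 2.11 and 3.40, with 2.59 as their median. Chromosome 8 was left out of this comparison and had 5.36 per Mb, also above that range, together with 11.4 NOD-enriched H3K4me3 regions per Mb. The ratio to the median was 2.67 (2.51 to 2.84). NOD-enriched H3K4me3 regions were sparser than the median, at 3.72 against 4.35 per Mb, a ratio of 0.855 (0.786 to 0.929). H3K27ac leaned the same way. B6-enriched H3K27ac regions reached 3.30 per Mb, 1.52 times the median (1.39 to 1.66), and NOD-enriched regions 1.78 per Mb, 0.764 times the median (0.675 to 0.861). Chromosome 11 had more B6-enriched H3K27ac regions per Mb than chromosome 6, at 3.68.

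**Figure D1:**
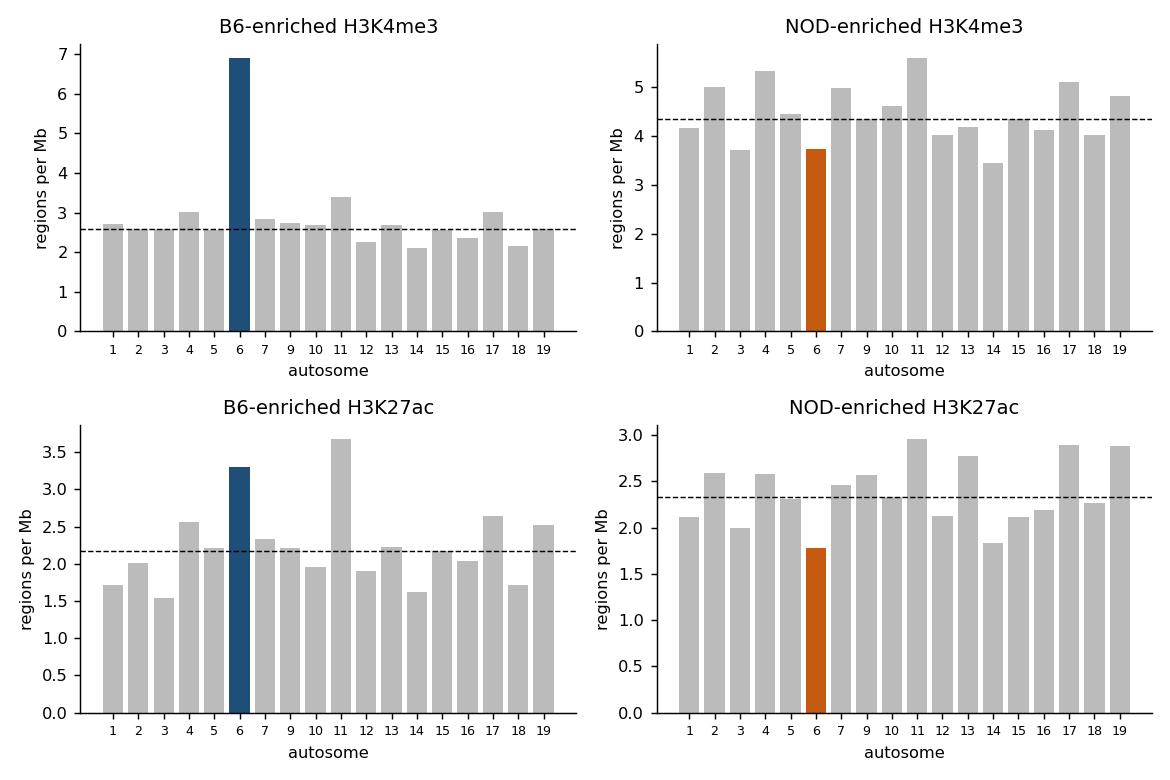
Regions per Mb on each autosome except chromosome 8, in 1 panel for each list, with chromosome 6 coloured and the median of the other 17 autosomes as a dashed line. Chromosome 6 reaches 6.91 B6-enriched H3K4me3 regions per Mb, while no other plotted autosome exceeds 3.40. Chromosome 8, which is not plotted, had 5.36.

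For H3K4me3 the lean towards B6 ran along the whole chromosome. In all 30 windows of 5 Mb, B6-enriched H3K4me3 regions outnumbered NOD-enriched ones, compared with 61 of 447 windows (13.6%) on the other autosomes. B6 counts per window ranged from 11 to 52 with a median of 34, and NOD counts from 2 to 35 with a median of 18.5. The widest gap was in the fourth window, with 52 B6 and 8 NOD regions. For H3K27ac, 26 of 30 windows had more B6 regions, compared with 170 of 447 (38.0%) elsewhere. The 4 windows with more NOD-enriched H3K27ac regions held at most 7 B6 regions each. They were windows 1, 3, 5 and 12, with 4 B6 and 6 NOD, 7 and 11, 6 and 7, and 6 and 7 regions. Windows 2 and 4, between the first of these, had 16 B6 and 9 NOD, and 6 and 5. The H3K27ac lean was therefore not clear at the start of the chromosome.

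**Figure D2:**
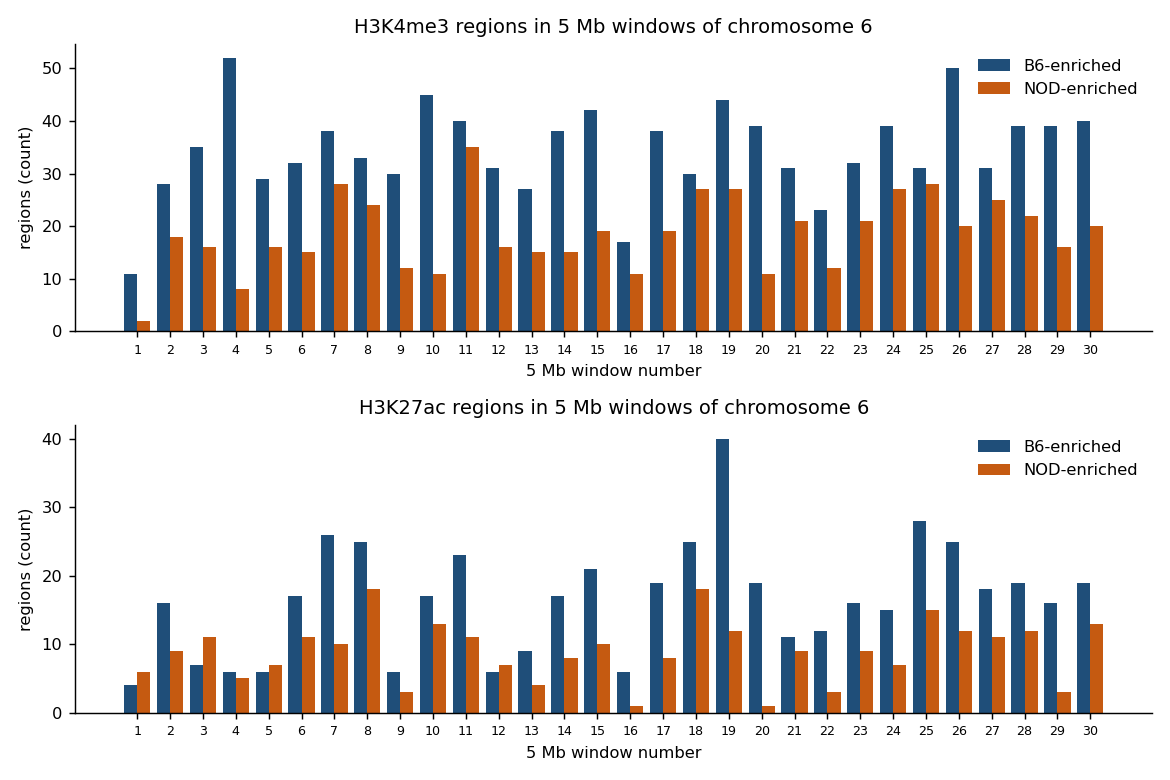
Counts of B6-enriched and NOD-enriched regions in the 30 consecutive 5 Mb windows of chromosome 6, with H3K4me3 above and H3K27ac below. B6 bars are taller in 30 windows for H3K4me3 and in 26 for H3K27ac.

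The strength of the regions differed between the strains. Among B6-enriched H3K4me3 regions of chromosome 6, 456 of 1034 (44.1%, 41.1 to 47.2) had no NOD tag, against 36.9% on the other autosomes, where the highest single value was 41.2%. Reads of both strains were aligned to a C57BL/6J reference. Loss of NOD reads that differ from it was not tested, for this or any other strain contrast here. A deposited fold of at least 8 was reached by 71.9%, against 64.0% elsewhere, and regions without NOD tags have very high deposited folds. With 3 tags taken for 0, the median fold was 9.23 against 8.20 elsewhere. Their median was 20 B6 tags on chromosome 6 and elsewhere, a value that the entry thresholds of the list constrain. The density ratio to the median autosome was 3.14 (2.86 to 3.45) for regions without NOD tags and 2.08 (1.83 to 2.34) for regions with 4 to 10 NOD tags. Strong NOD-enriched H3K4me3 regions were fewer than on the other autosomes. Regions with at least 50 NOD tags, after scaling to the B6 library, made up 7.54% of them against 12.6% elsewhere, below each of the 17 autosomes, and their density ratio was 0.511 (0.368 to 0.690).

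H3K27ac was graded by score, the deposited peak score, 1 value per region without separate values for each strain. Its scale is not stated in the sources used here. The B6 density ratio was 1.39 (1.16 to 1.64) for scores under 10 and 3.79 (2.72 to 5.14) for scores of 100 or more. The NOD ratio went the other way, from 0.987 (0.819 to 1.18) to 0.416 (0.215 to 0.727). Super enhancers, taken as regions with a score at or above the list median where the slope of the ranked score curve was at least 1, numbered 69 of 494 B6 regions (14.0%, 11.03 to 17.3) against 6.38% elsewhere. That was 18.1% of the 382 B6 super enhancers of the series. NOD had 11 of 267 (4.12%) on chromosome 6, against 8.35% elsewhere, or 2.24% of 491.

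**Figure D3:**
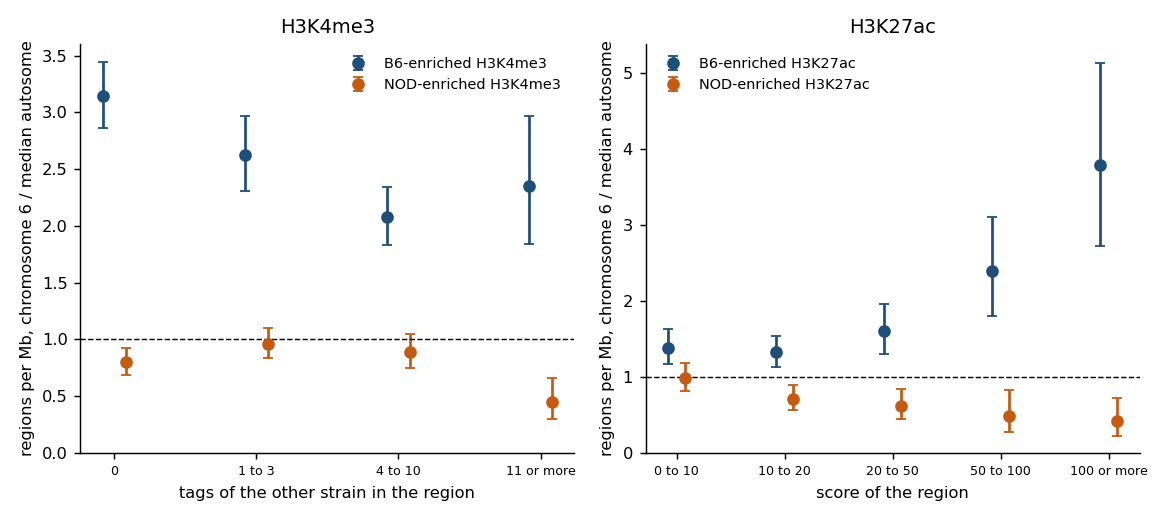
Regions per Mb on chromosome 6 divided by the median of 17 other autosomes, by tags of the other strain for H3K4me3 and by score for H3K27ac, with 95% exact intervals and a dashed line at 1. The B6 H3K27ac ratio is 1.39 in the lowest score class and 3.79 in the highest, while the NOD ratio is 0.987 and 0.416.

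Most members lay away from promoters. The centre was within 1 kb of a TSS in 74 of 1034 B6-enriched H3K4me3 regions (7.16%, 5.66 to 8.90), against 13.2% elsewhere, and in 41 of 557 NOD-enriched ones (7.36%, 5.33 to 9.85), against 11.6%. Both shares were below those of all 17 other autosomes. For H3K27ac the shares were 6.68% in B6 and 14.2% in NOD, against 10.6% and 17.4%. Intergenic sequence held 49.1% and introns 42.4% of B6-enriched H3K4me3 regions. Their median GC content was 43.4% and their median observed to expected CpG ratio 0.187, against 46.1% and 0.247 elsewhere. Of NOD-enriched H3K27ac regions, 48.3% (42.2 to 54.5) were annotated to a repeat, against 38.1% elsewhere and 47.8% on chromosome 18. B6-enriched H3K27ac regions fell in L1 elements in 6.68% (4.64 to 9.25) and in ERVL-MaLR elements in 5.67% (3.80 to 8.09), against 3.52% and 3.82%. The highest single autosomes among the others were near these values, at 6.34% for L1 (chromosome 13) and 5.10% for ERVL-MaLR (chromosome 10).

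Overlap between the marks was low over all regions and higher among strong ones. A same-strain H3K27ac region overlapped 37 B6-enriched H3K4me3 regions (3.58%) and 17 NOD-enriched ones (3.05%), against 3.92% and 6.13% elsewhere. Among regions with 50 or more own tags the overlap was 23.0% in B6 (13.2 to 35.5) and 16.7% in NOD (6.97 to 31.4). Seen from H3K27ac, 36 B6-enriched regions (7.29%) overlapped B6-enriched H3K4me3, against 4.52% elsewhere, and 15 NOD-enriched regions (5.62%) overlapped NOD-enriched H3K4me3, against 9.83%. An overlap share depends on the density of the overlapped list. H3K4me3 density on chromosome 6 was 2.67 times the median in B6 and 0.855 times in NOD. The chromosome was selected on the ratio of such regions, so these shares are only a description.

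The B6-enriched H3K4me3 region with the most tags, chr6:67238291-67239559, lay 28.1 kb upstream of Serbp1, an mRNA-binding protein, with 219 B6 and 81 NOD tags. After scaling for library size that was 4.16-fold (3.21 to 5.43). Another, chr6:67219584-67221875, lay 46.2 kb upstream of the same gene with 171 B6 and 31 NOD tags, 8.48-fold (5.76 to 12.9). A region in an intron of Frmd4b, a FERM-domain scaffold protein, had 178 B6 and 47 NOD tags. An intron of Fancd2, a Fanconi anaemia protein of DNA crosslink repair, held chr6:113543164-113544884 with 160 B6 and 10 NOD tags, 24.6-fold (13.0 to 52.3). The other leading B6 regions were intergenic and nearest to Klrb1b (169 B6 and 64 NOD tags) and Klrb1c (148 and 20), lectin-like receptors of natural killer cells. The Klrb1 genes have similar copies, so tags near them are less certain.

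NOD regions at the top of their list had more tags. The NOD library was deeper, and per the file headers the approximate immunoprecipitation efficiency was 2.66% in NOD and 1.32% in B6, whose part in this difference was not tested. The leading one, chr6:102731907-102735304, was intergenic, 60.8 kb upstream of Mir6373, with 30 B6 and 512 NOD tags, 11.1-fold (7.68 to 16.6). A region 34.7 kb upstream of Mgll, the monoacylglycerol lipase, had 19 B6 and 490 NOD tags. An intron of Aass, the first enzyme of lysine breakdown, held chr6:23085301-23086820 with 5 B6 and 354 NOD tags, 46.0-fold (19.5 to 143). It lay inside the NOD-enriched H3K27ac region with the highest score on the chromosome, 314.3. Regions near Slc35b4 (39 B6 and 361 NOD tags), Prickle2 (30 and 313) and Tm7sf3 (30 and 268) completed the 6 with the most tags.

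**Figure D4:**
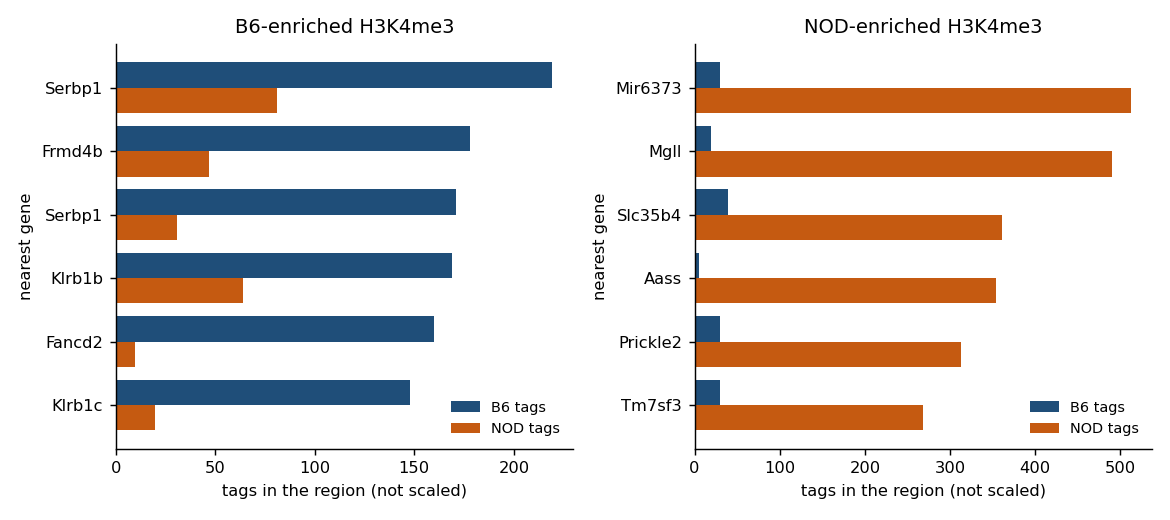
Tags of B6 and NOD, not scaled for library size, in the 6 regions with the most tags of each H3K4me3 list on chromosome 6, named by nearest gene. B6 tags reach 219 in the B6 list and NOD tags reach 512 in the NOD list, whose library held more tags.

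B6-enriched H3K27ac was led by chr6:93604983-93606723, an RLTR13B2 element of the ERVK class 307.1 kb from the nearest TSS, that of the scaffold gene Magi1, with a score of 471.3 and rank 3 of 5525. Efcab12 followed at 347.8, and Frmd4b had regions of 311.1 and 290.6, the latter 34328 bp wide and in its first intron. Vwf, the von Willebrand factor of blood clotting, had a region of 307.8, and an L1 element 683.2 kb from Rpia had one of 281.3. The NOD list was led by Aass and by Prrt3 (272.7), with Rasgef1a at 211.3. The B6 leader ranked 3 in its list, while Aass ranked 71 in the NOD list of 6126.

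Of the 1366 chromosome 6 genes with a curated RefSeq transcript, 210 (15.4%) had B6-enriched H3K4me3 at most 5 kb from a TSS, where the background over the other autosomes was 7.84%. NOD-enriched H3K4me3 was found at 150 genes (10.98%), background 15.0%. B6-enriched H3K27ac lay in the body or within 5 kb of a TSS of 256 genes (18.7%), background 13.2%, and NOD-enriched H3K27ac of 161 genes (11.8%), background 14.8%. Since the chromosome was selected on these lists, the counts are read only as a description. Of the 210 B6 genes, 61 (29.0%, 23.0 to 35.7) also had B6-enriched H3K27ac, against 23.9% elsewhere. Of the 150 NOD genes, 25 (16.7%, 11.1 to 23.6) had NOD-enriched H3K27ac, against 27.1% elsewhere, and 38 (25.3%) had B6-enriched H3K27ac, against 15.5%. Genes with both B6 marks included Frmd4b, the histone gene H2aj (132 B6 and 35 NOD H3K4me3 tags at its promoter) and Magi1 (129 and 41). Their B6-enriched H3K27ac region with the highest score lay 18.1 kb from the TSS at Frmd4b, 0.343 kb at H2aj and 197.3 kb at Magi1. Genes with both NOD marks included Rasgef1a (9 B6 and 125 NOD tags), Prrt3 (12 and 104), Zc3hav1, an antiviral RNA-binding protein (10 and 83), and Tigar, a regulator of glycolysis (12 and 80). The NOD-enriched H3K27ac region had a score of 211.3 at Rasgef1a and 272.7 at Prrt3. At Zc3hav1 and Tigar it was weak, with scores of 11.1 and 6.31, and lay 38.0 and 15.3 kb from the TSS.

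The Hoxa cluster had more NOD-enriched than B6-enriched genes. Of 13 genes of the cluster and its flanks, 9 (69.2%) had NOD-enriched H3K4me3, against 10.98% of all chromosome 6 genes and 15.0% elsewhere. The flanking gene Skap2 was the 1 gene (7.69%) with B6-enriched H3K4me3, against 15.4% and 7.84%. Hoxa10 had 22 B6 and 137 NOD tags at chr6:52234336-52234978, 4.05-fold (2.57 to 6.67). Hoxa5 and Hoxa6 shared a region with 13 B6 and 87 NOD tags, and Hoxa9 had 11 and 78. Hoxa3 and Hoxa6, and Hoxa10 and Hoxa11, also shared H3K4me3 regions, so the 9 genes do not stand for separate regions. NOD-enriched H3K27ac was assigned to 2 of the 13 genes (15.4%), against 11.8% of all chromosome 6 genes and 14.8% elsewhere. These were Hoxa10 and Hoxa11, which shared a single weak region of score 7.1. Skap2, an adaptor of immune cell signalling, had 16 B6 tags and 1 NOD tag, and 5 B6-enriched H3K27ac regions.

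Of 28 other developmental regulators, 7 (25.0%) had B6-enriched and 2 (7.14%) NOD-enriched H3K4me3, where all chromosome 6 genes gave 15.4% and 10.98%. Foxp1, a forkhead factor, had 107 B6 and 35 NOD tags in one region and 88 and 19 in another. Its whole gene body held 6 B6-enriched and 3 NOD-enriched H3K4me3 regions. Etv6, an ETS repressor, had 66 and 14 tags, and H3K27ac regions of up to 88.5 in score. The homeobox genes Vax2 (63 and 13) and Lbx2 (64 and 20) were in the B6 list. Emx1 was in both H3K4me3 lists, with 35 B6 and 11 NOD tags in one region and 6 and 91 in another. Gata2, a factor of blood stem cells, was NOD-enriched with 9 and 66 tags.

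Of 8 genes of the Nanog cluster, 2 (25%) had B6-enriched and 2 (25%) NOD-enriched H3K4me3, against 15.4% and 10.98% of all chromosome 6 genes. For H3K27ac it was 1 (12.5%) in each strain, against 18.7% and 11.8%. The remaining 5, Nanog itself among them, had no region in any list. No background share was computed for absence from all lists, so it is not read as a trait of the cluster. Dppa3, a maternal factor that protects DNA methylation, had 16 B6 and 0 NOD H3K4me3 tags, at least 8.20-fold higher in B6 when 3 tags are taken for 0, and a NOD-enriched H3K27ac region of score 44.8. Apobec1, an RNA-editing deaminase, had regions in both H3K4me3 lists, with 17 and 3 tags and with 4 and 25. Slc2a3, a glucose transporter, had 5 B6 and 35 NOD tags. Of 21 chromatin and cell cycle regulators, 6 (28.6%) had B6-enriched and 8 (38.1%) NOD-enriched H3K4me3, where all chromosome 6 genes gave 15.4% and 10.98%. Kdm3a, a histone H3 lysine 9 demethylase, had 13 B6 and 118 NOD tags, and Mbd4, a DNA glycosylase, 52 and 19. Tet3, which oxidises methylcytosine, and Phc1, a Polycomb subunit, were in both lists.

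Of 15 imprinted genes, 4 (26.7%) had B6-enriched and 2 (13.3%) NOD-enriched H3K27ac, where all chromosome 6 genes gave 18.7% and 11.8%. The neuronal scaffold gene Ppp1r9a was in both lists, with a B6-enriched region of score 274.6 that contained a NOD-enriched region of score 9.57. Each H3K4me3 list held 1 of them, Pon3 (35 B6 and 11 NOD tags) in B6 and Mest (4 and 28) in NOD. Of 57 genes of the natural killer gene complex and related lectins, 4 (7.02%) had B6-enriched and 3 (5.26%) NOD-enriched H3K4me3. These H3K4me3 shares and those that follow compare with 15.4% and 10.98% of all chromosome 6 genes. No region of any list was assigned to 44 of the 57, a count for which no background share was computed. Clec2f had 0 B6 and 118 NOD tags, at least 25.6-fold, and Klrg1 had 20 and 0, at least 10.3-fold. Many genes of the complex, though not all, have near-identical copies, so tags at those genes are uncertain. Of 31 other immune genes, 2 (6.45%) had B6-enriched and 3 (9.68%) NOD-enriched H3K4me3, among them Gimap4 (20 and 1) and Gimap3 (0 and 37). Of 84 vomeronasal and taste receptor genes, 6 (7.14%) had B6-enriched and 2 (2.38%) NOD-enriched H3K4me3. Of 6 glycolysis and housekeeping genes, 2 (33.3%) and 3 (50%) did.

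Among gene bodies, chosen after their values were seen, Cntnap2, a neurexin-family adhesion gene of 2241 kb, held 18 B6-enriched and 3 NOD-enriched H3K4me3 regions. Ccser1 held 11 and 5, and St7 held 8 and 0. Other bodies leaned to NOD, with 0 and 6 in Rasgef1a, 0 and 4 in Klra1, and 2 and 5 in both Plxna4 and Prickle2. Magi1 held 12 B6-enriched and 4 NOD-enriched H3K27ac regions, and Mpp6 held 0 and 4. At the threshold of the H3K4me3 lists, the lowest folds on chromosome 6 were 4.02 in B6, at Cdkn1b with 34 B6 and 13 NOD tags, and 4.01 in NOD. Regions just under the threshold are not listed in the files used here. In the NOD H3K27ac list, 4 of the 18 regions with a score of 0 or below lay on chromosome 6, the lowest at Nop2 with -41.26.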

How the data were processed

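ES cell chromatin of B6 and NOD was immunoprecipitated with antibodies to H3K4me3 and H3K27ac, giving 4 libraries. Per the study's methods, the authors aligned reads with bowtie2 to mm10 and analysed them with HOMER. The other strain was the background, per the file headers for H3K4me3 and the names of the deposited H3K27ac lists. The submitters' processing notes name CASAVA 1.8.2, STAR 2.2.0c, HOMER and mm9 instead. The H3K27ac headers name mm10, and 84.6% of 11651 deposited TSS distances lay within 50 bp of those computed on GRCm38. Per the file headers, H3K4me3 regions had to exceed the other strain by a fold of 4 with a Poisson p-value of 1.00e-04. The deposited p-values were not used. Deposited tag counts were in B6 library units, so NOD counts were multiplied by 1.54, which gave values within 0.0769 of whole numbers. The deposited fold, the deposited score of H3K27ac and the deposited normalised tag signal were taken as given. The column with the slope held the region size in the 5 highest regions of each H3K27ac list.

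Genes and TSS came from curated RefSeq transcripts of GRCm38. Python 3.11.15 with numpy 2.4.6, pandas 2.3.3, scipy 1.17.1 and matplotlib 3.10.9 was used, and the functions were checked on simulated data. For each list the 6 regions with the most tags or the highest score were named, with up to 5 genes carrying both marks per strain. The members and gene lists were chosen with earlier results of these data known. Alternatives covered stricter thresholds, joined regions, window sizes and distances.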

Additional observations from a re-analysis of the deposited data

How the results depend on the processing

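Of 36 alternatives, 19 stayed within the interval of the reported value, or within 1.5 times a count, and 17 moved. Neither NOD share crossed 50% and no density ratio crossed 1. The NOD share of H3K4me3 regions on chromosome 6, 35.0%, was 30.1% at a fold of 8 or more and 40.8% (31.2 to 50.9) with 50 or more own tags. The NOD share of H3K27ac regions, 35.1%, was 26.1% at a score of 20 or more and 13.8% among super enhancers. Within 5 kb of a TSS lay 18.4% and 24.4% of B6-enriched and NOD-enriched H3K4me3 regions and 14.2% and 25.5% of H3K27ac regions. Overlap with same-strain H3K27ac was 2.32% of B6-enriched H3K4me3 regions when 50% of the region had to be covered, against 2.33% in NOD, so the order of the strains turned from 3.58% and 3.05%, and was 23.0% (B6) and 16.7% (NOD) with 50 or more own tags. The median fold fell from 23.1 to 7.69 in B6 and from 9.54 to 6.67 in NOD when at least 1 tag of the other strain was required. Within 1 kb of a TSS, 99 and 61 genes had B6-enriched and NOD-enriched H3K4me3, down from 210 and 150 within 5 kb. For H3K27ac the numbers were 53 and 54, down from 101 and 89, so the B6 lead was gone. The cause of these shifts was not tested, beyond the smaller or larger sets of regions that the alternatives define. No paired analysis was possible because there was 1 library for each strain and mark.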
